A study of Homo sapiens with 12 samples.

Results

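The 38 genes described here encode the enzymes that build purine and pyrimidine nucleotides, convert them to deoxynucleotides, recover free bases, carry one-carbon units on folate, and make serine. They were chosen by name from the pathway and matched by symbol to the identifiers of both count tables, where each had 1 entry among 61906 genes. The tables held RNA-seq counts from MOLM-14, an acute myeloid leukemia cell line with a KMT2A fusion and an activating duplication in FLT3. In the first experiment, cells carried a lentiviral shRNA against the RNA helicase gene DDX5 (shDDX5) or a control shRNA (shControl), and RNA was taken at 96 hours after infection. In the second, cells of the same line were exposed for 6 hours to RX-5902 at 100 nM, a compound known for binding the phosphorylated form of DDX5, or to 0.1% DMSO. Each of the 4 groups had 3 libraries that the labels call biological replicates. The labels name a single shRNA against DDX5 and no rescue, and a single dose and time of the compound.

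Purines are assembled on ribose phosphate in a chain of steps that ends in IMP, from which separate branches lead to AMP and GMP. Pyrimidines are built as a ring first and then joined to ribose phosphate. Ribonucleotide reductase turns ribonucleotides into deoxynucleotides, and thymidylate is made with a one-carbon unit from folate. Serine feeds these units into the folate cycle, which runs in the cytosol and in mitochondria. Leukemia cells that divide fast draw heavily on these routes, and several of the enzymes are drug targets.

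Total counts ran from 17603589 to 20367575 per library. Levels are given as CPM, counts scaled to library size with TMM factors within each experiment. A gene is said to have risen or fallen where edgeR's quasi-likelihood test called it, with Benjamini-Hochberg adjustment across every gene in the fit and a threshold of 0.05. DDX5 itself stood at 159, 164 and 161 CPM in shDDX5 cells, against 755, 718 and 729.5 CPM in shControl cells (log2 fold change -2.19, SE 0.08, edgeR adjusted p = 3.44e-06). In the other experiment it stood at 1108, 1067 and 1023 CPM with RX-5902, against 854, 868 and 863 CPM with DMSO (log2 fold change 0.31, SE 0.04, edgeR adjusted p = 1.47e-08). Of 12 myeloid and leukemia markers, none was at 0 counts in any group, and their summed level was 13615 to 15014 CPM in shDDX5 and 4373 to 4712 CPM in shControl libraries. In the other experiment the sum was 1352 to 1367 CPM with RX-5902 and 1581 to 1627 CPM with DMSO. The markers did not move together. In the knockdown 6 of 10 tested rose and 3 fell, where 28.4% and 28.3% of all tested genes did. Among the rises were LYZ (log2 fold change 1.92), CD33 (0.91) and MPO (0.86), and the falls were MEIS1 (-2.73), HOXA9 (-1.62) and FLT3 (-0.51). With RX-5902 3 of 10 rose and 7 fell, where 32.2% and 31.9% of all tested genes did. Of 7 T and NK cell markers 3 to 6 were at 0 in a group, and their sum was at most 170.1 CPM. That was in a DMSO library, where 6 were at 0 in the group and NCAM1 made up the sum. The 5 B cell markers summed to at most 2.49 CPM, the 6 erythroid and platelet markers to at most 0.542, and the 8 packaging, epithelial and fibroblast markers to at most 21.5 CPM in a library. Replicate 1 of shDDX5 stood apart: its chi-square per gene against replicates 2 and 3 was 46.3 and 46.4, while all other pairs of replicates lay between 1.68 and 5.93. Mitochondrial genes took 10.3, 8.09 and 7.71% of counts in shDDX5 libraries and 7.75, 6.70 and 6.17% in shControl libraries, 5.19 to 5.98% with RX-5902 and 5.96 to 6.20% with DMSO, and their part in the results was not tested. The members lay higher in shDDX5 replicate 1 than in replicates 2 and 3 by a median of 0.15 on the log2(CPM + 1) scale, against -0.0015 over all tested genes.

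Most members were lower in both experiments, and the arms differed in size of change. In shDDX5 cells 28 of 37 tested members fell and 3 rose, where 28.3% of all tested genes fell and 28.4% rose (56.7% called). By at least 2-fold 12 members fell, against 10.3% of all tested genes. Without shDDX5 replicate 1 these counts were 30 and 4, where 35.7% of genes fell and 35.7% rose. With RX-5902 33 of 37 fell and 1 rose, where 31.9% of all tested genes fell and 32.2% rose (64.1% called). The median log2 fold change of the members was -0.60 in the knockdown and -0.54 with the compound, while that of all tested genes was -0.00071 and 0.012. The groups did not overlap for 36 of the 37 members in the knockdown, against 66.1% of all tested genes, and for 34 of the 37 with the compound, against 67.4%. Less RNA of a gene per cell and fewer cells that express it cannot be told apart in these bulk libraries. In all, 25 members fell in both experiments, against 12.8% of the 13233 genes tested in both.

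**Figure D1:**
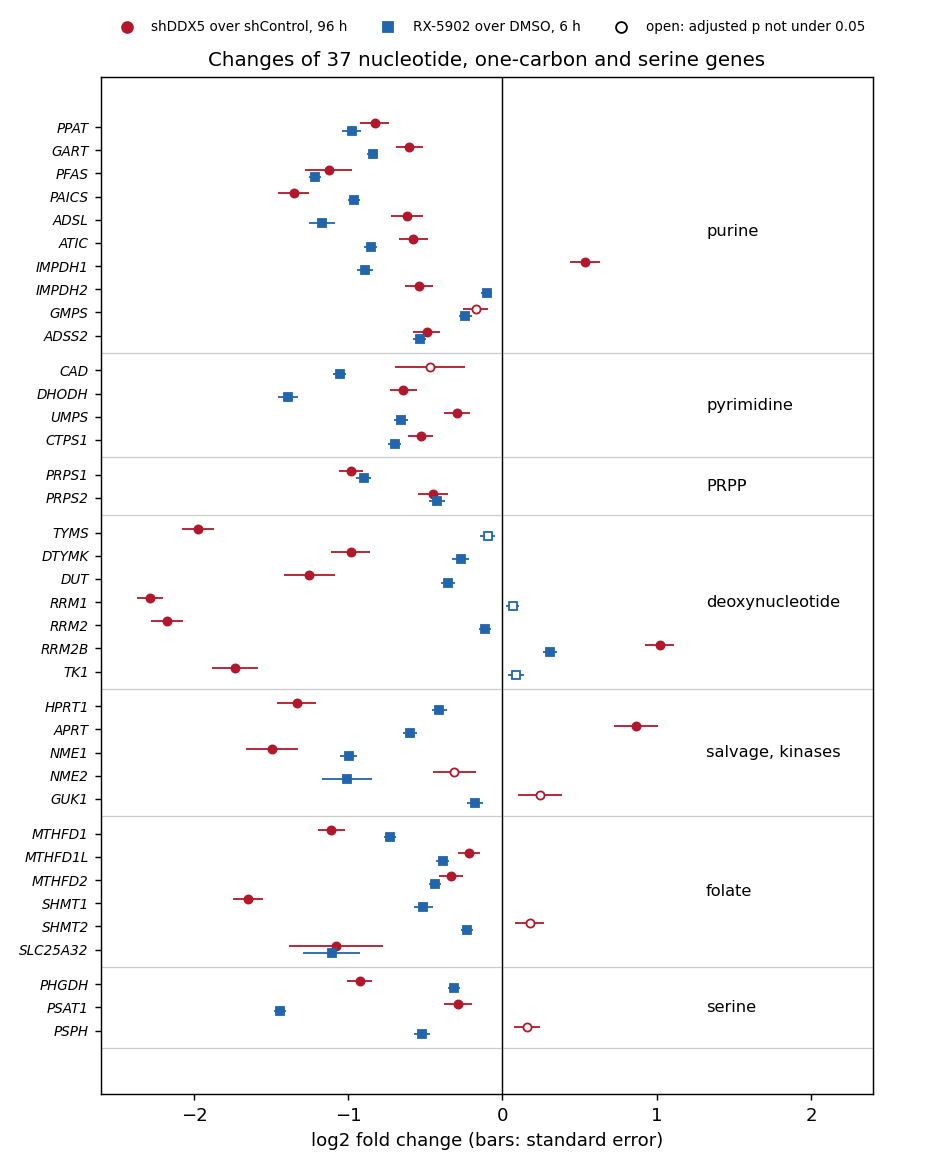
Log2 fold change (horizontal axis) of the 37 tested members by arm, for shDDX5 over shControl at 96 hours (circles) and RX-5902 over DMSO at 6 hours (squares), with the standard error as bars and open symbols where the adjusted p was not under 0.05. The deoxynucleotide genes RRM1, RRM2, TYMS and TK1 lie between -2.28 and -1.73 in the knockdown and between -0.11 and 0.09 with the compound.

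The arms were set side by side by their median log2 fold change, as a description. Purine synthesis stood at -0.59 in the knockdown and -0.87 with the compound, pyrimidine synthesis at -0.50 and -0.88, and PRPP synthesis at -0.71 and -0.66. Deoxynucleotide synthesis stood at -1.73 in the knockdown and at -0.10 with the compound. The folate arm was at -0.71 and -0.47, salvage and kinases at -0.31 and -0.60, and serine synthesis at -0.29 and -0.52. The difference between the experiments was tested gene by gene over all 12 libraries, as the shDDX5 change minus the RX-5902 change. It passed for 24 of the 37 members, 11 higher and 13 lower in the knockdown, where 24.1% and 28.6% of all tested genes were called in those directions. Agent, time and experiment differed together and cannot be told apart.

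The deoxynucleotide genes RRM1, RRM2, TYMS and TK1 had the largest differences between the experiments among the members. RRM1, the large catalytic subunit of ribonucleotide reductase, stood at 37.1, 40.3 and 40.1 CPM in shDDX5 cells, against 199.9, 187 and 185 CPM in shControl cells (log2 fold change -2.28, SE 0.08, edgeR adjusted p = 3.44e-06). That put it 4.87-fold lower, with every shDDX5 library below every shControl library. In the other experiment RRM1 was at 248, 248 and 237 CPM with RX-5902, against 226, 231 and 244 CPM with DMSO, where the groups overlapped (log2 fold change 0.07, SE 0.04, edgeR adjusted p = 0.147). It was called there as a rise only with the length correction, at 0.09 (edgeR adjusted p = 0.0451), and with the stricter filter, at 0.10 (edgeR adjusted p = 0.0306). The difference between the changes was -2.37 on the log2 scale (edgeR adjusted p = 3.16e-10).

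The small subunit RRM2, which cells make mainly in S phase, stood at 45.8, 43.2 and 38.01 CPM in shDDX5 cells, against 205, 182 and 186 CPM in shControl cells (log2 fold change -2.17, SE 0.10, edgeR adjusted p = 3.79e-06). With the compound it moved little, at 276, 262 and 266 CPM with RX-5902, against 293, 287 and 291 CPM with DMSO (log2 fold change -0.11, SE 0.04, edgeR adjusted p = 0.00815), and without RX-5902 replicate 2 that fall was not called (log2 -0.10, edgeR adjusted p = 0.0734), nor was it in the joint fit of 12 libraries (log2 -0.08, edgeR adjusted p = 0.435). RRM2B, the alternative small subunit, which cells also make outside S phase, was the 1 member that rose in both experiments. It stood at 207, 233 and 213 CPM in shDDX5 cells, against 115, 99.9 and 107 CPM in shControl cells (log2 fold change 1.02, SE 0.09, edgeR adjusted p = 4.85e-05). RRM2B stood at 79.7, 77.7 and 77.3 CPM with RX-5902, against 64.3, 61.7 and 63.3 CPM with DMSO (log2 fold change 0.31, SE 0.04, edgeR adjusted p = 2.76e-07). Per length, RRM2 made up 11.5, 9.84 and 9.50% of the summed RRM2 and RRM2B level (RPKM) in shDDX5 cells, against 51.2, 51.8 and 50.6% in shControl cells. The share was 67.1, 66.5 and 67.0% with RX-5902, against 72.8, 73.3 and 73.1% with DMSO. These shares depend on the annotated exonic lengths, 9153 bases for RRM2 and 5391 for RRM2B. In CPM RRM2 stood above RRM2B in every shControl library.

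Thymidylate genes followed the same split. TYMS, the thymidylate synthase, stood at 16.02, 20.1 and 16.97 CPM in shDDX5 cells, against 68.9, 68.8 and 71.3 CPM in shControl cells (log2 fold change -1.98, SE 0.10, edgeR adjusted p = 4.94e-06), and every shDDX5 library lay below every shControl library. In the compound experiment it was at 86.5, 86.9 and 89.9 CPM with RX-5902, against 101, 91.4 and 88.8 CPM with DMSO, with overlapping groups (log2 fold change -0.10, SE 0.05, edgeR adjusted p = 0.0705), although it fell when DMSO replicate 3 was left out (log2 -0.15, edgeR adjusted p = 0.00737). TYMS shares 967 exonic bases, 39.9% of its length, with ENOSF1 on the opposite strand, so its level is less certain. TK1, the S-phase thymidine kinase, stood at 16.9, 11.4 and 13.6 CPM in shDDX5 cells, against 41.7, 50.1 and 47.5 CPM in shControl cells (log2 fold change -1.73, SE 0.15, edgeR adjusted p = 3.49e-05). In the other experiment it was at 60.2, 64.99 and 68.7 CPM with RX-5902, against 62.2, 62.8 and 57.2 CPM with DMSO (log2 fold change 0.09, SE 0.05, edgeR adjusted p = 0.128), and it was called as a rise without RX-5902 replicate 1 (log2 0.14, edgeR adjusted p = 0.0210), with the stricter filter (0.12) and with the length correction (0.14).

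DUT and DTYMK fell in both experiments, by more in the knockdown. Their falls with RX-5902 were not called in the joint fit of 12 libraries (DUT -0.32, edgeR adjusted p = 0.0571, and DTYMK -0.23, edgeR adjusted p = 0.0782). DUT, which destroys dUTP, stood at 47.99, 31.4 and 31.1 CPM in shDDX5 cells, against 86.2, 87.8 and 88.8 CPM in shControl cells (log2 fold change -1.25, SE 0.16, edgeR adjusted p = 0.000342). DUT stood at 78.3, 79.2 and 78.5 CPM with RX-5902, against 96.03, 102 and 103 CPM with DMSO (log2 fold change -0.35, SE 0.04, edgeR adjusted p = 1.08e-08). Its shDDX5 replicate 1 lay 0.60 above the other replicates on the log2(CPM + 1) scale. DTYMK, the kinase of thymidylate, stood at 24.3, 17.8 and 18.4 CPM in shDDX5 cells, against 37.7, 39.5 and 42.4 CPM in shControl cells (log2 fold change -0.98, SE 0.13, edgeR adjusted p = 0.000333). It was at 45.8, 52.4 and 52.4 CPM with RX-5902, against 60.4, 61.9 and 59.6 CPM with DMSO (log2 fold change -0.27, SE 0.05, edgeR adjusted p = 3.22e-05). The knockdown change minus the compound change was -0.91 for DUT (edgeR adjusted p = 0.00076) and -0.73 for DTYMK (edgeR adjusted p = 0.000949). In all, 6 deoxynucleotide members had a lower change in the knockdown than with the compound and RRM2B a higher one. Of all tested genes 28.6% and 24.1% were called in those directions.

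Genes of the cell cycle moved beside this arm in the knockdown. Of 16 proliferation genes, 16 fell in shDDX5 cells with a median of -2.03, where 28.3% of all tested genes fell. With RX-5902 7 fell and 7 rose with a median of -0.01, where 31.9% and 32.2% of all tested genes did. MKI67, a marker of cycling cells, was at -2.41 in the knockdown and 0.92 with the compound, and the cyclin gene CCNA2 at -1.70 and 0.04. The 7 that fell with RX-5902 were MCM2 (-0.81), CDC6 (-0.72), MCM6 (-0.63), MCM5 (-0.41), MCM3 (-0.39), MCM7 (-0.21) and CCNE2 (-0.17). The 7 that rose, by 0.26 to 0.92, were MKI67, PLK1, CDT1, TOP2A, AURKB, CCNB1 and CDK1. E2F1, a transcription factor known to drive many deoxynucleotide genes, fell by 1.66 in the knockdown and by 0.27 with the compound, and E2F2 fell by 1.88 in the knockdown and rose by 0.69 with the compound. Whether the fall of the deoxynucleotide genes goes with a lower share of cells in S phase was not tested.

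**Figure D2:**
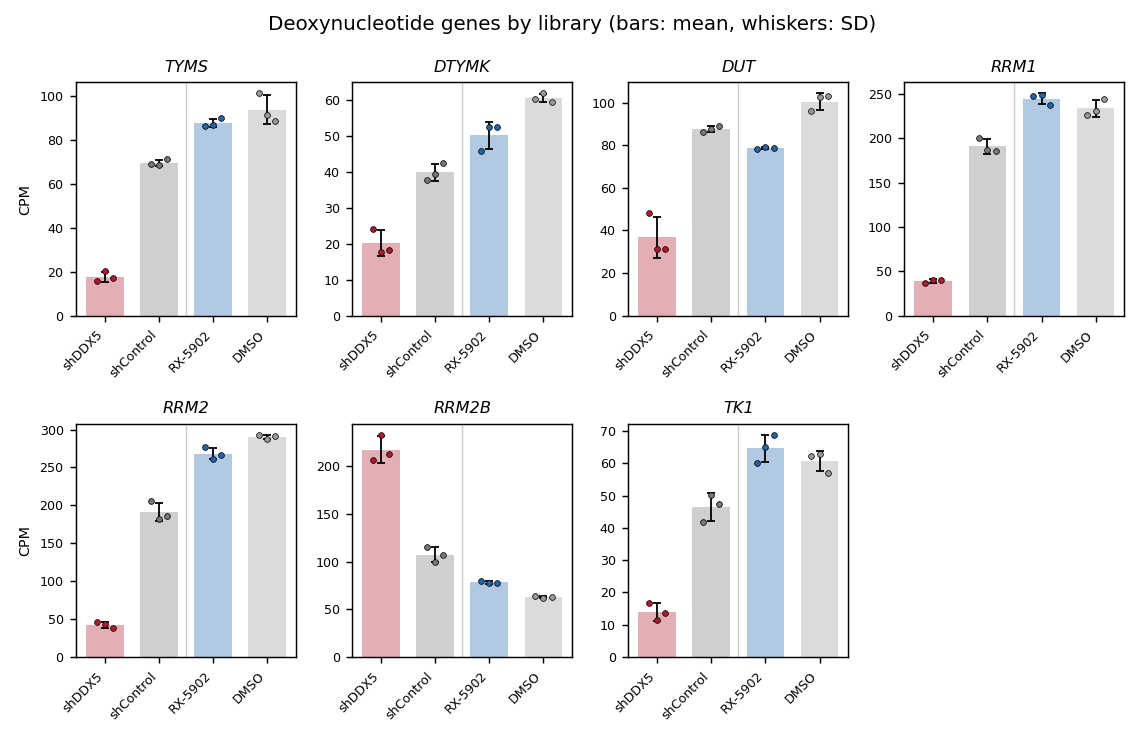
CPM (vertical axes, each from 0) of the 7 deoxynucleotide members in every library of shDDX5, shControl, RX-5902 and DMSO, with bars for the mean and whiskers for the SD of 3 libraries. RRM1, RRM2, TYMS and TK1 are low in the shDDX5 libraries, while their RX-5902 and DMSO bars lie close together.

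In purine synthesis every gene of the route to IMP fell in both experiments. PPAT, which commits ribose phosphate to the purine route, stood at 32.8, 39.4 and 35.3 CPM in shDDX5 cells, against 66.4, 61.02 and 63.6 CPM in shControl cells (log2 fold change -0.83, SE 0.09, edgeR adjusted p = 0.000155). PPAT stood at 38.8, 39.4 and 36.7 CPM with RX-5902, against 67.8, 74.7 and 83.8 CPM with DMSO (log2 fold change -0.98, SE 0.06, edgeR adjusted p = 5.98e-16). PAICS, the bifunctional enzyme of the middle steps, was at 175, 148 and 145 CPM in shDDX5 cells, against 415, 390.1 and 391 CPM in shControl cells (log2 fold change -1.35, SE 0.10, edgeR adjusted p = 1.78e-05), the largest fall of the arm in the knockdown. It was at 263, 255 and 249.8 CPM with RX-5902, against 507, 493 and 496 CPM with DMSO (log2 fold change -0.96, SE 0.04, edgeR adjusted p = 7.27e-21). PFAS, the glutamine-using synthase, was at 45.2, 65.3 and 69.6 CPM in shDDX5 cells, against 126, 133 and 134 CPM in shControl cells (log2 fold change -1.13, SE 0.15, edgeR adjusted p = 0.000402), where replicate 1 was the lowest library. Its compound values were 86.5, 87.1 and 86.6 CPM with RX-5902, against 206, 202 and 197 CPM with DMSO (log2 fold change -1.22, SE 0.04, edgeR adjusted p = 7.1e-23). Neither set of groups overlapped for these genes.

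GART, which catalyses several steps of the route, was at 113, 131 and 129.9 CPM in shDDX5 cells, against 193, 186 and 189 CPM in shControl cells (log2 fold change -0.60, SE 0.09, edgeR adjusted p = 0.000567). GART stood at 147, 149.9 and 149.6 CPM with RX-5902, against 263, 267 and 271 CPM with DMSO (log2 fold change -0.84, SE 0.04, edgeR adjusted p = 2.78e-19). ATIC, which closes the IMP ring, was at 112, 96.7 and 91.3 CPM in shDDX5 cells, against 150.4, 149.7 and 147 CPM in shControl cells (log2 fold change -0.58, SE 0.09, edgeR adjusted p = 0.00108). ATIC stood at 124, 118 and 115 CPM with RX-5902, against 219, 221 and 207 CPM with DMSO (log2 fold change -0.85, SE 0.04, edgeR adjusted p = 1.72e-18). ADSL, the lyase used on the way to IMP and again to AMP, had low levels, at 9.31, 8.72 and 8.56 CPM in shDDX5 cells, against 14.8, 13.2 and 12.9 CPM in shControl cells (log2 fold change -0.62, SE 0.10, edgeR adjusted p = 0.0012). ADSL stood at 7.43, 6.95 and 7.62 CPM with RX-5902, against 15.7, 16.9 and 16.9 CPM with DMSO (log2 fold change -1.17, SE 0.09, edgeR adjusted p = 8.33e-14). ADSL shares 1344 exonic bases, 11.1% of its length, with an unnamed gene on its own strand, so its level is less certain. It fell by more with the compound (difference 0.53, edgeR adjusted p = 0.00265), while PAICS fell by more in the knockdown (difference -0.41, edgeR adjusted p = 0.00672). With the length correction the PAICS difference was not called (-0.25, edgeR adjusted p = 0.120). The difference for GART was 0.22 (edgeR adjusted p = 0.0445) and was not called without the filter on low counts (edgeR adjusted p = 0.227) or in 10 of the 12 fits that left out 1 library, all but those without shControl replicate 1 and shDDX5 replicate 1. The differences for PPAT, PFAS and ATIC were not called, at 0.13, 0.07 and 0.26 (edgeR adjusted p = 0.367, 0.724 and 0.0654 in that order), although PFAS was called at 0.25 (edgeR adjusted p = 0.00098) and ATIC at 0.18 (edgeR adjusted p = 0.0153) without shDDX5 replicate 1. For ATIC it was also called at 0.31 and 0.35 without shDDX5 replicates 2 and 3 (edgeR adjusted p = 0.0382 and 0.0136). With all libraries kept, the ATIC difference was called with DESeq2 size factors (0.28, edgeR adjusted p = 0.0444) and with the stricter filter (0.27, edgeR adjusted p = 0.0338). The DESeq2 test called it too (0.28, DESeq2 adjusted p = 0.0314).

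The branches from IMP did not move as 1 block. IMPDH1 and IMPDH2 catalyse the same limiting step toward GMP, and their changes were opposite in the knockdown. IMPDH1 stood at 114, 99.04 and 102 CPM in shDDX5 cells, against 65.9, 78.6 and 72.4 CPM in shControl cells (log2 fold change 0.54, SE 0.10, edgeR adjusted p = 0.00191), with every shDDX5 library above every shControl library. IMPDH2 stood at 221, 190.0 and 204 CPM in shDDX5 cells, against 283, 299 and 314 CPM in shControl cells (log2 fold change -0.54, SE 0.09, edgeR adjusted p = 0.00123). In the compound experiment IMPDH1 fell, at 37.6, 38.1 and 39.8 CPM with RX-5902, against 72.02, 72.9 and 69.3 CPM with DMSO (log2 fold change -0.89, SE 0.05, edgeR adjusted p = 6.71e-17). IMPDH2 was at 294, 296 and 298 CPM with RX-5902, against 323, 321 and 310.3 CPM with DMSO (log2 fold change -0.10, SE 0.04, edgeR adjusted p = 0.0153), a fall that was not called without RX-5902 replicate 2 (edgeR adjusted p = 0.0584), with the stricter filter (edgeR adjusted p = 0.0653) or in the joint fit of 12 libraries (log2 -0.07, edgeR adjusted p = 0.484). Per length, IMPDH1 took 41.9, 42.2 and 41.2% of the summed IMPDH level in shDDX5 cells, against 24.6, 26.9 and 24.4% in shControl cells. It took 15.2, 15.3 and 15.7% with RX-5902, against 23.8, 24.1 and 23.8% with DMSO. The difference between the experiments was 1.41 for IMPDH1 (edgeR adjusted p = 1.78e-07) and -0.46 for IMPDH2 (edgeR adjusted p = 0.0017).

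GMPS, which makes GMP, was at 125, 113 and 110.1 CPM in shDDX5 cells, against 133, 128 and 131 CPM in shControl cells (log2 fold change -0.17, SE 0.08, edgeR adjusted p = 0.104), and at -0.23 without shDDX5 replicate 1, where it was called (edgeR adjusted p = 6.65e-05). In the other experiment it was at 134, 138 and 131 CPM with RX-5902, against 153, 158 and 165 CPM with DMSO (log2 fold change -0.24, SE 0.04, edgeR adjusted p = 4.41e-06). ADSS2, the first step from IMP to AMP, was at 94.3, 88.5 and 81.3 CPM in shDDX5 cells, against 124, 117 and 130.3 CPM in shControl cells (log2 fold change -0.49, SE 0.09, edgeR adjusted p = 0.00192). ADSS2 stood at 106, 107 and 103 CPM with RX-5902, against 151, 149.6 and 158 CPM with DMSO (log2 fold change -0.54, SE 0.04, edgeR adjusted p = 1.78e-13). For GMPS and ADSS2 the difference between the experiments was not called, at 0.05 (SE 0.09) and 0.03 (SE 0.10).

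**Figure D3:**
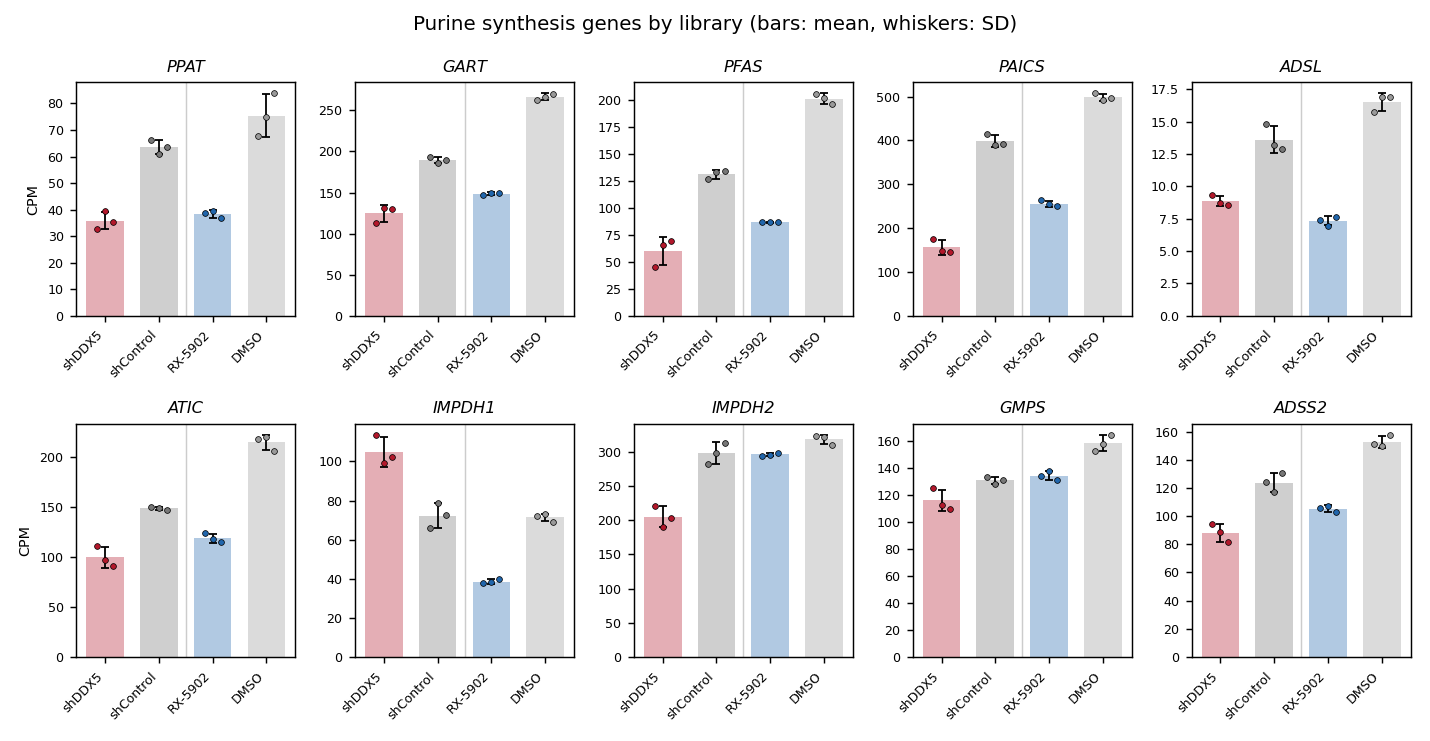
CPM (vertical axes, each from 0) of the 10 purine synthesis members in every library of shDDX5, shControl, RX-5902 and DMSO, with bars for the mean and whiskers for the SD of 3 libraries. IMPDH1 is higher in shDDX5 than in shControl libraries and lower in RX-5902 than in DMSO libraries, and the 9 other genes have lower means in shDDX5 than in shControl and in RX-5902 than in DMSO libraries.

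Promoter sequences were read for what the members share beyond their function. RefSeq promoter windows on GRCh38.p14, from 250 bases before to 50 bases after a start, were at hand for 32 of the 38 members, some with several windows; those of RRM2B, ADSL, IMPDH2, SLC25A32, SHMT2 and PSPH were not analysed here. The E-box CACGTG, known as a site of MYC and its relatives and equal to its own reverse complement, lay in a window of 7 of the 32 genes (21.9%), namely ATIC, DHODH, MTHFD1, MTHFD1L, NME1, PAICS and PPAT, against 8.77% of 27305 genes with a window. Within the 200 bases nearest the start it lay in 5 of the 32, against 6.75% of all. A gene was counted if any of its windows matched. The 32 members had 51 windows and the 27305 genes had 35116, so the members had more windows per gene in which to match. The 7 also include PPAT and PAICS, which share a site. PPAT and PAICS are read in opposite directions from starts with 136 bases between them (1 of 3 annotated starts of PAICS), and the same CACGTG lay at -182 of PPAT and at 41 of PAICS. The 250 bases before the start of 4 of these genes are shown with the E-box in capitals, in the direction of transcription: PPAT at chr4:56435616-56435865 on the minus strand, and on the plus strand ATIC at chr2:215311809-215312058, DHODH at chr16:72008494-72008743 and MTHFD1 at chr14:64388103-64388352.
PPAT: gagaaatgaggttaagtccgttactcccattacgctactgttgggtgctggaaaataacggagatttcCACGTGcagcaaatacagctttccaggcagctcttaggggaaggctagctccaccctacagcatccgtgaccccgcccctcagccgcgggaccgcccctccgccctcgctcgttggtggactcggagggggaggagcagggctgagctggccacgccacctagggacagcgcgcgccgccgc
ATIC: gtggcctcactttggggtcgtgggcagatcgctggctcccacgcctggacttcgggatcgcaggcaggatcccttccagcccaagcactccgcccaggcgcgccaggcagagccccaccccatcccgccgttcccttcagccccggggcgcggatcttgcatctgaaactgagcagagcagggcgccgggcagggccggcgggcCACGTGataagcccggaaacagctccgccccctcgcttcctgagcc
DHODH: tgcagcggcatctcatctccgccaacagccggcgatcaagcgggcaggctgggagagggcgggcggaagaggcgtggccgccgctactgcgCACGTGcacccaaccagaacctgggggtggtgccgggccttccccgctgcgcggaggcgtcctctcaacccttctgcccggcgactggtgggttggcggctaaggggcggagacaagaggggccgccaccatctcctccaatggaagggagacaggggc
MTHFD1: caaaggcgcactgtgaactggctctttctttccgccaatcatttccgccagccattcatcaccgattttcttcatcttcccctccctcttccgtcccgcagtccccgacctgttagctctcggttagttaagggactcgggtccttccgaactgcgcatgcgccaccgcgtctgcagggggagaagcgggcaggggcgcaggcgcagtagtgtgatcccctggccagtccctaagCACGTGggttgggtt

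The match shown in ATIC lay at -46, with another at 30 after the start, that in DHODH at -159 and that in MTHFD1 at -15. The E2F-type words TTTCCCGC and TTTGGCGC, read on both strands, lay in windows of 3 members (DUT, PRPS2 and TYMS; 9.38%, against 1.98% of all genes) and 2 members (DUT and GART; 6.25%, against 0.795%). RRM1, RRM2 and TK1 had neither word in their windows, and DUT, PRPS2 and GART fell in both experiments. In TYMS, which fell with the knockdown but was not called with the compound, TTTCCCGC began at -39, on the reverse strand, and stands in capitals in the 250 bases before its start at chr18:657403-657652, plus strand.
TYMS: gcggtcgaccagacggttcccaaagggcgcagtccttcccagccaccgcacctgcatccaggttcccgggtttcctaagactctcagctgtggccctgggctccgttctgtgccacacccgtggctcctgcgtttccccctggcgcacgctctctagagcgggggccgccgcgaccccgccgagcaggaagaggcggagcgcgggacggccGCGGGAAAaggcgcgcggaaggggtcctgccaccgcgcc

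CCAAT, a word common in promoters, lay in 15 of the 32 (46.9%), against 39.7% of all genes, among them RRM1, RRM2 and TK1. TGATGCAA, a site of C/EBP and ATF factors, lay in 1 member, MTHFD1L (3.12%, against 1.08%), and GCGCATGC, a site of NRF1, in 2, CTPS1 and MTHFD1 (6.25%, against 3.68%). All words were read on both strands, none holds another, and a match describes the letters only. MYC RNA was at 204, 191 and 192 CPM in shDDX5 cells, against 403, 441 and 434 CPM in shControl cells (log2 fold change -1.12, SE 0.08, edgeR adjusted p = 1.89e-05). MYC stood at 145, 152 and 158 CPM with RX-5902, against 646, 611 and 591 CPM with DMSO (log2 fold change -2.02, SE 0.04, edgeR adjusted p = 8.73e-28). MAX, its partner, rose by 0.44 in the knockdown and fell by 0.59 with the compound. NRF1 fell by 0.43 in the knockdown and was at 0.05 with the compound, MYCN was not tested because its counts were too low, and the cell cycle brake RB1 fell by 0.78 in the knockdown and rose by 0.16 with the compound.

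Pyrimidine synthesis fell by more with the compound for DHODH and UMPS. DHODH, the mitochondrial enzyme that is a drug target in leukemia, stood at 16.6, 17.2 and 17.6 CPM in shDDX5 cells, against 26.2, 25.3 and 28.9 CPM in shControl cells (log2 fold change -0.64, SE 0.09, edgeR adjusted p = 0.000434). It was 2.62-fold lower with RX-5902, at 13.1, 14.7 and 15.2 CPM with RX-5902, against 37.05, 38.3 and 37.1 CPM with DMSO (log2 fold change -1.39, SE 0.07, edgeR adjusted p = 1.19e-18). The change differed by 0.73 (edgeR adjusted p = 5.95e-05). UMPS, which completes UMP, was at 64.98, 56.3 and 57.5 CPM in shDDX5 cells, against 74.98, 70.9 and 73.4 CPM in shControl cells (log2 fold change -0.30, SE 0.09, edgeR adjusted p = 0.0185), a fall that was called in only 1 of the 6 fits that left out a library, the one without shDDX5 replicate 1, and had an adjusted p of 0.0515 to 0.0702 in the others. It was not called with the length correction either (log2 -0.18, edgeR adjusted p = 0.170). Its compound values were 55.8, 52.5 and 53.9 CPM with RX-5902, against 83.6, 86.7 and 85.5 CPM with DMSO (log2 fold change -0.66, SE 0.05, edgeR adjusted p = 2.06e-14), and the change differed by 0.34 (edgeR adjusted p = 0.00905).

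CAD, the large enzyme of the first steps, was spread in the knockdown. It stood at 56.3, 106 and 112 CPM in shDDX5 cells, against 121, 132 and 126 CPM in shControl cells (log2 fold change -0.47, SE 0.23, edgeR adjusted p = 0.109), and replicate 1 lay 0.94 below the other replicates on the log2(CPM + 1) scale. Without that library the fall was -0.22 and was called (edgeR adjusted p = 0.000357), as it was with all libraries in the joint fit of both experiments (log2 -0.45, edgeR adjusted p = 0.0296). The difference between the experiments was 0.56 and not called in the main fit (edgeR adjusted p = 0.0582). With all libraries it was called without the filter on low counts (0.56, edgeR adjusted p = 3.89e-05) and with the length correction (0.74, edgeR adjusted p = 0.00483). It was also called with DESeq2 size factors (0.59, edgeR adjusted p = 0.0489) and by the DESeq2 test (0.59, DESeq2 adjusted p = 0.0423). Without shDDX5 replicate 1 it was 0.83 (edgeR adjusted p = 2.71e-13). With the compound CAD was at 135, 140.1 and 144 CPM with RX-5902, against 305, 292 and 275 CPM with DMSO (log2 fold change -1.05, SE 0.04, edgeR adjusted p = 1.01e-20), with no overlap. CTPS1, which turns UTP into CTP, was at 89.5, 84.7 and 80.98 CPM in shDDX5 cells, against 122, 122 and 126 CPM in shControl cells (log2 fold change -0.53, SE 0.08, edgeR adjusted p = 0.000628). CTPS1 stood at 99.2, 93.3 and 93.6 CPM with RX-5902, against 156, 156 and 152 CPM with DMSO (log2 fold change -0.70, SE 0.04, edgeR adjusted p = 2.8e-16). The CTPS1 difference was 0.15 and not called (edgeR adjusted p = 0.173), but was called with the length correction (0.43, edgeR adjusted p = 0.0102). Its paralog CTPS2 was listed at 0 counts in all 12 libraries and was not tested. If its reads were counted like those of other genes, a floor of 3 counts allows at most 0.147 to 0.170 CPM in a library, for counting error only. Whether the 0 comes from the annotation or the counting was not tested. Its neighbours on the X chromosome SYAP1, TXLNG and RBBP7 had 219 to 548, 430 to 1142 and 1178 to 3117 counts per library. Among its other neighbours, S100G was at 0 counts in all 12 libraries and GRPR had 0 to 4 counts per library.

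PRPP, the activated ribose phosphate that both routes need, is made by PRPS1 and PRPS2. PRPS1 stood at 48.8, 48.2 and 45.4 CPM in shDDX5 cells, against 96.99, 92.02 and 91.8 CPM in shControl cells (log2 fold change -0.98, SE 0.08, edgeR adjusted p = 2.61e-05). PRPS1 stood at 52.8, 54.7 and 54.1 CPM with RX-5902, against 104, 95.1 and 102 CPM with DMSO (log2 fold change -0.90, SE 0.05, edgeR adjusted p = 8.89e-18). PRPS2 stood at 49.1, 42.7 and 39.7 CPM in shDDX5 cells, against 60.6, 60.5 and 58.2 CPM in shControl cells (log2 fold change -0.45, SE 0.10, edgeR adjusted p = 0.00466). PRPS2 stood at 38.5, 38.6 and 37.8 CPM with RX-5902, against 52.9, 50.6 and 50.4 CPM with DMSO (log2 fold change -0.42, SE 0.05, edgeR adjusted p = 1.05e-08). The differences between the experiments were -0.10 (SE 0.09) and -0.04 (SE 0.11) and were not called. Per length, PRPS1 took 44.7 to 48.2% of their sum in shDDX5 and 55.3 to 56.6% in shControl cells, and 52.7 to 53.8% with RX-5902 and 60.5 to 62.3% with DMSO.

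The salvage genes for purine bases moved apart in the knockdown. HPRT1, which recovers hypoxanthine and guanine, was at 28.2, 21.7 and 20.8 CPM in shDDX5 cells, against 63.2, 60.1 and 54.9 CPM in shControl cells (log2 fold change -1.33, SE 0.13, edgeR adjusted p = 6.92e-05). APRT, which recovers adenine, was at 259, 178 and 189.8 CPM in shDDX5 cells, against 109, 121 and 115 CPM in shControl cells (log2 fold change 0.86, SE 0.14, edgeR adjusted p = 0.00118). In both genes replicate 1 was the highest shDDX5 library, by 0.39 and 0.49 on the log2(CPM + 1) scale. Both fell with the compound. HPRT1 was at 54.3, 48.5 and 50.8 CPM with RX-5902, against 70.5, 66.02 and 67.4 CPM with DMSO (log2 fold change -0.41, SE 0.05, edgeR adjusted p = 1.19e-08). APRT was at 70.8, 71.4 and 74.3 CPM with RX-5902, against 109, 109.6 and 109 CPM with DMSO (log2 fold change -0.60, SE 0.04, edgeR adjusted p = 3.03e-14). The difference was -0.94 for HPRT1 (edgeR adjusted p = 0.000101) and 1.45 for APRT (edgeR adjusted p = 5.3e-06). GUK1, the guanylate kinase, was at 105, 69.95 and 80.04 CPM in shDDX5 cells, against 68.7, 71.02 and 75.7 CPM in shControl cells with overlapping groups (log2 fold change 0.24, SE 0.14, edgeR adjusted p = 0.181), and was called at 0.37 without shDDX5 replicate 2 (edgeR adjusted p = 0.0492). In the compound experiment it was at 52.9, 61.2 and 58.1 CPM with RX-5902, against 67.6, 64.7 and 62.1 CPM with DMSO (log2 fold change -0.18, SE 0.05, edgeR adjusted p = 0.0039), a fall that was not called in the joint fit of 12 libraries (log2 -0.14, edgeR adjusted p = 0.392). Its difference between the experiments was 0.40 and was not called (edgeR adjusted p = 0.0643), although it was without any 1 of the shDDX5 replicates 1, 2 and 3 (0.23, 0.55 and 0.47, edgeR adjusted p = 0.0162, 0.00547 and 0.0413). With all libraries kept, the GUK1 difference was called without the filter on low counts (0.40, edgeR adjusted p = 0.00759). It was also called with the stricter filter and with the length correction (both 0.42, edgeR adjusted p = 0.0483 and 0.0348).

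NME1 and NME2 encode nucleoside diphosphate kinases and lie side by side. NME1 was at 21.6, 13.5 and 14.1 CPM in shDDX5 cells, against 45.5, 46.8 and 46.3 CPM in shControl cells (log2 fold change -1.49, SE 0.17, edgeR adjusted p = 0.000152), with replicate 1 the highest shDDX5 library by 0.61. With the compound NME1 was at 29.6, 29.1 and 31.8 CPM with RX-5902, against 63.8, 59.7 and 57.1 CPM with DMSO (log2 fold change -0.997, SE 0.06, edgeR adjusted p = 8.36e-17). NME2 was at 3.81, 3.91 and 4.12 CPM in shDDX5 cells, against 5.18, 5.18 and 4.34 CPM in shControl cells (log2 fold change -0.31, SE 0.14, edgeR adjusted p = 0.0899). With the length correction that fall was called (log2 -0.43, edgeR adjusted p = 0.0340). NME2 stood at 1.64, 2.92 and 2.57 CPM with RX-5902, against 4.90, 4.45 and 5.01 CPM with DMSO (log2 fold change -1.01, SE 0.16, edgeR adjusted p = 1.79e-06). The read-through gene NME1-NME2 shares 638 exonic bases with NME1 and 603 with NME2 (18.7 and 24.2% of their lengths), so the counts of both are uncertain. The differences between the experiments, -0.51 for NME1 and 0.68 for NME2, lost their call in 10 and 3 of the 12 fits that left out a library, and that of NME2 also with the length correction (0.55, edgeR adjusted p = 0.0659). For NME1 the call held only without shDDX5 replicate 1 or DMSO replicate 1.

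In the folate arm 5 of 6 members fell in the knockdown, where 28.3% of all tested genes did, and the cytosolic SHMT1 and MTHFD1 had the larger changes beside their mitochondrial counterparts. SHMT1, the cytosolic serine hydroxymethyltransferase, was 3.13-fold lower, at 5.91, 5.60 and 5.74 CPM in shDDX5 cells, against 18.97, 17.2 and 17.95 CPM in shControl cells (log2 fold change -1.65, SE 0.10, edgeR adjusted p = 7.46e-06). MTHFD1, the cytosolic multi-step folate enzyme, was at 65.1, 75.05 and 74.3 CPM in shDDX5 cells, against 149, 155 and 159 CPM in shControl cells (log2 fold change -1.11, SE 0.09, edgeR adjusted p = 2.59e-05). The mitochondrial SHMT2 was at 576, 481 and 524 CPM in shDDX5 cells, against 445, 478 and 476 CPM in shControl cells (log2 fold change 0.18, SE 0.09, edgeR adjusted p = 0.144), and without shDDX5 replicate 1 it was called as a rise of 0.11 (edgeR adjusted p = 0.0474), as in the joint fit, at 0.20 (edgeR adjusted p = 0.0415). MTHFD2 and MTHFD1L are mitochondrial enzymes on the way to formate. MTHFD2 was at 187, 200.5 and 185 CPM in shDDX5 cells, against 241, 240.4 and 240.2 CPM in shControl cells (log2 fold change -0.33, SE 0.08, edgeR adjusted p = 0.00632). MTHFD1L was at 142, 138 and 142 CPM in shDDX5 cells, against 163, 162 and 165 CPM in shControl cells (log2 fold change -0.22, SE 0.07, edgeR adjusted p = 0.0322). The fall of MTHFD1L was called only without shDDX5 replicate 1 among the 6 fits that left out a library (edgeR adjusted p = 0.0839 to 0.111 in the other 5). It was not called without the filter on low counts either (edgeR adjusted p = 0.0797). The fall of MTHFD2 was not called with the length correction (log2 -0.15, edgeR adjusted p = 0.181). Differences between genes within an experiment were not tested.

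With RX-5902 all 6 folate members fell, where 31.9% of all tested genes did, although in the joint fit of 12 libraries SHMT2 was not called (log2 -0.19, edgeR adjusted p = 0.0645). SHMT1 was at 23.2, 20.6 and 23.1 CPM with RX-5902, against 31.8, 32.5 and 31.1 CPM with DMSO (log2 fold change -0.51, SE 0.06, edgeR adjusted p = 1.23e-08). MTHFD1 was at 158, 156 and 154 CPM with RX-5902, against 264, 263 and 249.9 CPM with DMSO (log2 fold change -0.73, SE 0.04, edgeR adjusted p = 2.11e-17). SHMT2 was at 524, 539 and 546 CPM with RX-5902, against 659.7, 628 and 596 CPM with DMSO (log2 fold change -0.23, SE 0.04, edgeR adjusted p = 6.39e-06). MTHFD2 was at 203, 195 and 195 CPM with RX-5902, against 262, 266 and 274 CPM with DMSO (log2 fold change -0.44, SE 0.04, edgeR adjusted p = 6.52e-12). MTHFD1L was at 165, 163 and 163 CPM with RX-5902, against 221, 216 and 205 CPM with DMSO (log2 fold change -0.39, SE 0.04, edgeR adjusted p = 1.93e-10). The knockdown change minus the compound change was -1.15 for SHMT1 (edgeR adjusted p = 1.2e-06), -0.40 for MTHFD1 (edgeR adjusted p = 0.0018) and 0.39 for SHMT2 (edgeR adjusted p = 0.00938). With the length correction the MTHFD1 difference was -0.06 (edgeR adjusted p = 0.595). The differences for MTHFD2 and MTHFD1L were 0.09 and 0.15 and not called (edgeR adjusted p = 0.390 and 0.127). With the length correction both were called, at 0.35 and 0.18 (edgeR adjusted p = 0.00626 and 0.0419). That of MTHFD1L was also called by the DESeq2 test (0.18, DESeq2 adjusted p = 0.0213) and without shDDX5 replicate 1 (0.15, edgeR adjusted p = 0.0246). SLC25A32, a carrier of folate into mitochondria, had 11 to 90 counts per library and was at 0.625, 1.47 and 1.10 CPM in shDDX5 cells, against 2.59, 2.37 and 1.83 CPM in shControl cells (log2 fold change -1.08, SE 0.30, edgeR adjusted p = 0.0157). SLC25A32 stood at 1.64, 2.30 and 1.36 CPM with RX-5902, against 4.55, 3.59 and 3.31 CPM with DMSO (log2 fold change -1.11, SE 0.18, edgeR adjusted p = 3.07e-06). Its difference between the experiments was 0.01 (SE 0.48) and was not called (edgeR adjusted p = 0.992). Its fall in the knockdown was not called without shControl replicate 1 or 2 (edgeR adjusted p = 0.0634 and 0.0512). It shares 406 exonic bases with DCAF13 on the opposite strand and 2547 with an unnamed gene on its own, so its counts are uncertain.

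Per length, SHMT1 made up 0.666, 0.756 and 0.713% of the summed SHMT level in shDDX5 cells, against 2.72, 2.29 and 2.41% in shControl cells. The share was 2.44 to 2.81% with RX-5902, against 3.06 to 3.30% with DMSO. SHMT1 shares 197 exonic bases with SMCR8 on the opposite strand. MTHFD1 took 11.4 to 13.3% of the summed MTHFD1 and MTHFD1L level in shDDX5 and 20.5 to 21.3% in shControl cells. It took 21.0 to 21.3% with RX-5902 and 25.2 to 25.6% with DMSO.

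**Figure D4:**
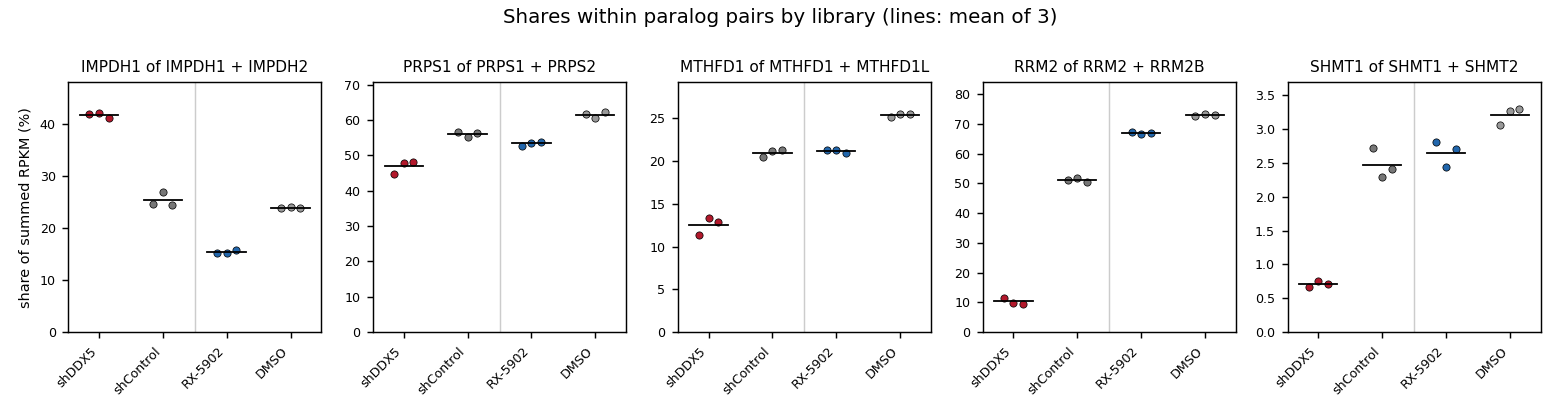
Share of the first named gene in the summed length-scaled level (RPKM, in percent) of 5 gene pairs, by library, for shDDX5, shControl, RX-5902 and DMSO, with lines at the mean of 3 libraries. IMPDH1 takes 41.2 to 42.2% in shDDX5 and 24.4 to 26.9% in shControl libraries, and 15.2 to 15.7% in RX-5902 and 23.8 to 24.1% in DMSO libraries.

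Serine synthesis runs through PHGDH, PSAT1 and PSPH, and the 3 genes separated between the experiments. PHGDH, the first step, was at 108, 95.4 and 100.5 CPM in shDDX5 cells, against 185, 195 and 197 CPM in shControl cells (log2 fold change -0.93, SE 0.08, edgeR adjusted p = 4.58e-05). PHGDH stood at 227, 235 and 234 CPM with RX-5902, against 294, 289 and 281 CPM with DMSO (log2 fold change -0.31, SE 0.04, edgeR adjusted p = 8.4e-09). PSAT1, the aminotransferase and the most abundant member per length in both controls, at 127 RPKM in shControl and 144 RPKM in DMSO cells, was at 252, 229 and 209 CPM in shDDX5 cells, against 283, 282 and 278 CPM in shControl cells (log2 fold change -0.29, SE 0.09, edgeR adjusted p = 0.026). That small fall was called in only 1 of the 6 fits that left out a library, the one without shDDX5 replicate 1, with an adjusted p of 0.0689 to 0.106 in the others. The rank per length rests on annotated exonic lengths, 2206 bases for PSAT1 and 4592 for SHMT2, the next member in both controls. With the compound PSAT1 was 2.72-fold lower, the largest fall of all members, at 116, 117 and 118 CPM with RX-5902, against 308, 321 and 324 CPM with DMSO (log2 fold change -1.44, SE 0.04, edgeR adjusted p = 4.03e-25). PSPH, the last step, whose counts are uncertain because a pseudogene copy held 1657 counts against its own 10097 over all libraries, was at 43.8, 39.9 and 39.2 CPM in shDDX5 cells, against 38.6, 35.8 and 35.7 CPM in shControl cells (log2 fold change 0.16, SE 0.09, edgeR adjusted p = 0.147). PSPH stood at 38.1, 37.1 and 39.5 CPM with RX-5902, against 54.6, 57.2 and 52.9 CPM with DMSO (log2 fold change -0.52, SE 0.05, edgeR adjusted p = 1.52e-10). In the joint fit of 12 libraries PSPH was called as a rise in the knockdown (log2 0.18, edgeR adjusted p = 0.0422). The difference was -0.63 for PHGDH (edgeR adjusted p = 5.86e-05), 1.14 for PSAT1 (edgeR adjusted p = 5.9e-07) and 0.66 for PSPH (edgeR adjusted p = 7.4e-05).

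ATF4 is known to drive genes of serine synthesis and mitochondrial folate enzymes. Its RNA was at 818, 633 and 648 CPM in shDDX5 cells, against 587, 582 and 561 CPM in shControl cells (log2 fold change 0.28, SE 0.11, edgeR adjusted p = 0.0679). ATF4 stood at 525, 533 and 550.2 CPM with RX-5902, against 606, 598 and 583 CPM with DMSO (log2 fold change -0.15, SE 0.04, edgeR adjusted p = 0.000584). Of 15 other ATF4 targets, 10 rose and 1 fell in shDDX5 cells (median 0.56), and 3 rose and 6 fell with RX-5902 (median -0.07, 14 tested). Over all tested genes 28.4% rose and 28.3% fell in shDDX5 cells, and 32.2% rose and 31.9% fell with RX-5902. ASNS, the asparagine synthetase, fell in both experiments, by 1.69 and by 1.12, while CHAC1, which degrades glutathione, rose by 0.53 in the knockdown and fell by 2.05 with the compound.

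**Figure D5:**
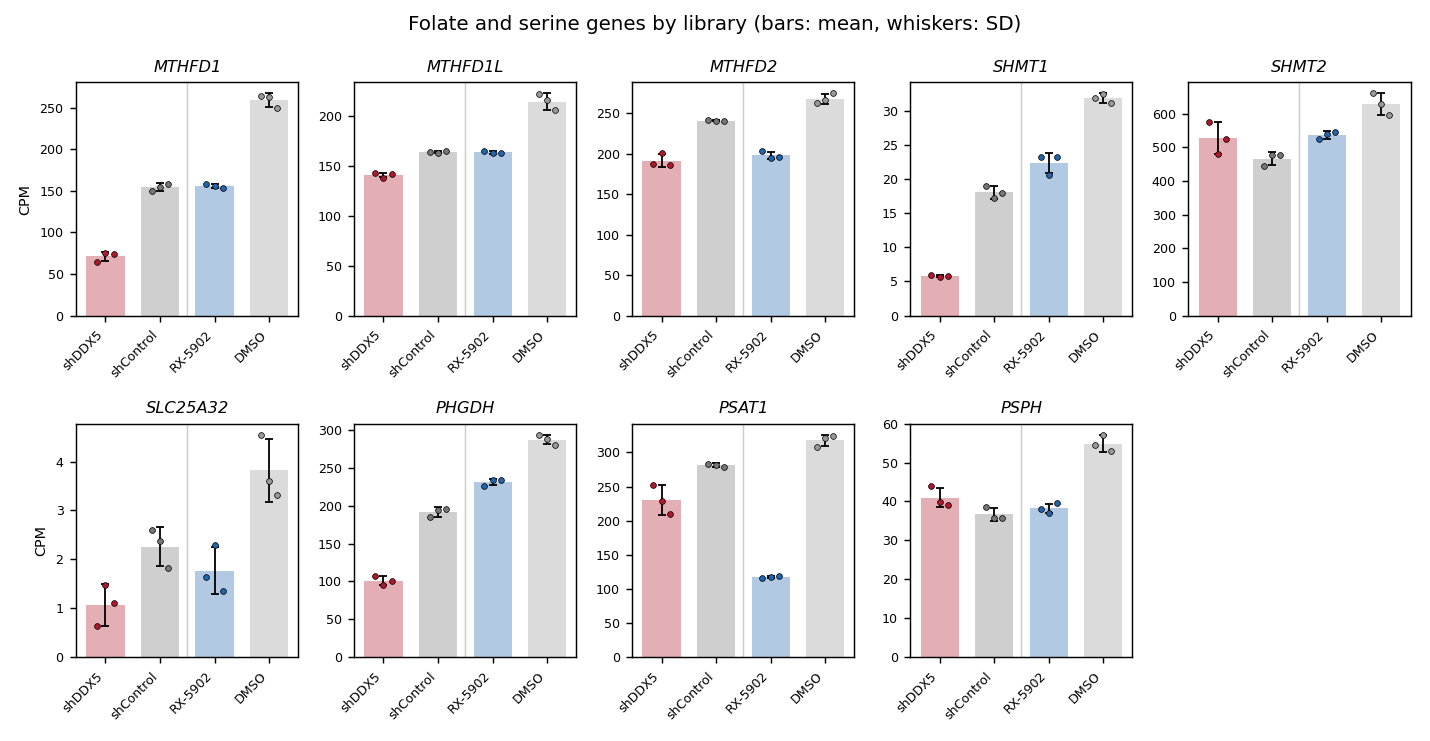
CPM (vertical axes, each from 0) of the 6 folate and 3 serine members in every library of shDDX5, shControl, RX-5902 and DMSO, with bars for the mean and whiskers for the SD of 3 libraries. SHMT1 is lowest in the shDDX5 libraries, and PSAT1 is lower in RX-5902 than in DMSO libraries.

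A further 84 genes of the same pathways, taken from lists of degradation, salvage, transport and methionine cycle genes, were counted beside the members. In the knockdown 21 of 74 tested rose and 27 fell (median log2 fold change -0.04), where 28.4% and 28.3% of all tested genes did. With RX-5902 13 of 71 rose and 38 fell (median -0.23), where 32.2% and 31.9% of all tested genes did. In shDDX5 cells the largest falls were those of MTR (-2.11) and MTRR (-1.26) of the methionine cycle, the nucleotidase gene NT5M (-2.00), the pyrimidine breakdown gene UPB1 (-1.87), the glutamine transporter SLC1A5 (-1.79), the deoxycytidine kinase DCK (-1.33), NUDT1, which clears oxidised nucleotides (-1.24), and NME3 (-1.16). The largest rises were those of the serine dehydratase SDS (2.50) and its relative SDSL (1.99), the thymidine phosphorylase TYMP (2.30), the dNTP hydrolase SAMHD1 (1.23), the nucleotidase NT5E (0.98), the kinase AK3 (0.93), and the purine breakdown genes PNP (0.76) and ADA (0.73).

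With RX-5902 the folate importer SLC19A1 (-1.39), the methionine adenosyltransferase MAT2A (-1.24), GCSH of the glycine cleavage system (-1.21), NT5M (-1.15), SLC1A5 (-1.04), the mitochondrial folate enzyme ALDH1L2 (-1.02) and DCTPP1, which clears deoxycytidine nucleotides (-0.97), were among the 8 largest falls. Among the 8 largest rises were those of the AMP deaminase AMPD3 (1.57), the uridine phosphorylase UPP1 (1.35), ADSS1 (0.79), PRPSAP1 (0.55), the mitochondrial thymidine kinase TK2 (0.52), TYMP (0.50) and the transporter SFXN3 (0.44). NT5M and SLC1A5 were among the 8 largest falls, and TYMP among the 8 largest rises, in both experiments.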

How the data were processed

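RNA-seq was run on total RNA of MOLM-14 cells, per the labels. The strand setting and annotation release are not given in the sources used here. Per the submitters' processing notes, the tools were STAR 2.7.9a, Trim Galore 0.6.7, featureCounts of Subread 2.0.3, Picard 2.8.0, DESeq2 1.46.0 and R 4.4.2, with GRCh38.p13. The deposited values are whole-number counts per gene, 1 table per experiment with 61906 genes and 6 libraries, and 0 per-sample columns were left unused. Wrapped lines, 2 in either file, were rejoined. Symbols were matched for 59984 genes by versioned identifier and for 1773 without the version, and 149 had none.

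The 6 libraries of an experiment were fitted together, apart from the other experiment, with edgeR 4.0.16 (limma 3.58.1, R 4.3.3): genes kept by filterByExpr (minimum count 10, minimum total 15), TMM scaling, quasi-likelihood F test, and Benjamini-Hochberg adjustment over all tested genes with a threshold of 0.05. The standard error was taken from the log2 fold change and its F statistic. The difference between the experiments was fitted over all 12 libraries. RPKM is CPM divided by the exonic length in kilobases that the tables give. These lengths were not checked against the transcripts the cells express, and shares between genes depend on them. Nothing in the labels says that replicates came from separate cultures beyond calling them biological replicates, so p-values measure the spread between these libraries. The fits were checked on simulated data: of genes changed 2-fold, 75.8% were recovered in the knockdown, 89.9% with the compound and 67.4% in the difference, and of genes changed 1.5-fold 33.3, 78.6 and 33.3%. Of the simulated calls 6.25, 2.92 and 3.03% were false. Only 95 to 99 tested genes were changed at each fold, while 56.7% and 64.1% of genes were called in the 2 experiments. The rates therefore need not hold for the real fits. Intervals and floors cover counting error only.

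The members, gene lists and tests were chosen with earlier results of these data known. All members are named by their fold change, and of the other pathway genes the called ones with the 8 largest rises and falls per experiment. A few of the genes this rule or the list of regulators names are not reported here. DESeq2 1.42.0 (its size factors and its test), no filter, a stricter filter (mean CPM of 5), a joint fit of 12 libraries, leaving out each library, a replicate block, a correction for gene length, and a test against a fold of 1.2 were tried as alternatives. Promoter sequences are from RefSeq on GRCh38.p14, another patch release than the p13 of the notes; no coordinates of the tables were mixed with it.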

Additional observations from a re-analysis of the deposited data

How the results depend on the processing

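Of the members called, 26 of 31 in the knockdown, 25 of 34 with the compound and 17 of 24 in the difference kept their call under every alternative run, and no called result changed sign. The cause of the following shifts was not tested. Members that rose in the knockdown numbered 5 in the joint fit of 12 libraries, against 3. In the same fit 27 members fell with the compound, against 33, without IMPDH2, DTYMK, DUT, RRM2, GUK1 and SHMT2. Members that rose with the compound, 1 in the main fit, numbered 3 with the stricter filter and 3 with the length correction. They numbered 2 with the length correction and replicate block, 0 against a fold of 1.2, and 1 to 2 when 1 library was left out. Against a fold of 1.2, 5190 genes were called with the compound, against 8943, and 7 members were higher in the difference, against 11. Replicate numbers did not pair the libraries: the correlations of same-numbered deviations were -0.10, -0.20 and 0.08 in the knockdown and -0.20, 0.06 and -0.27 with the compound. With the replicate block 7592 genes were called in the knockdown (members 3 up, 28 down), 8696 with the compound (1 up, 33 down) and 7626 in the difference (10 up, 13 down). CAD was then called in the knockdown (-0.53, edgeR adjusted p = 0.0499), and MTHFD1L in the knockdown (0.0937) and GART in the difference (0.113) were not. Depth limits ADSL, NME2 and SLC25A32, which had the fewest counts of the 37 tested members.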
